A study of Mus musculus with 2 samples.

Results

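Actin cytoskeleton genes were examined in a map of ARID4B binding in the newborn mouse testis. ARID4B is a chromatin protein with an AT-rich interaction domain that belongs to the SIN3 corepressor complex, which carries histone deacetylases. The study made 1 ChIP library with an anti-ARID4B antibody and 1 input DNA library, the control, from testes of wild type mice on a hybrid C57BL6/J and 129/SvEv background at postnatal day 1.5. The chromatin came from a pool of 108 testes that were not separated into cell types, so an interval has no cell type of origin here, and no value has a replicate. The authors deposited 6632 intervals enriched in the ChIP library, each with a score that ranged from 70.02 to 1760.61 (median 125.0). The deposited list is named for p-values, but all its values exceed 1 and their scale is not stated, so a higher score is read here as stronger evidence for an interval and not as a measured level of binding. The members were 56 listed genes of the actin cytoskeleton among 21887 protein-coding genes on the assembled chromosomes. A gene was called marked when at least 1 bp of an interval fell in its RefSeq record on mouse build GRCm38 or in the 1000 bp on either side. All coordinates are on that build and count from 1.

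Actin filaments grow from monomers that profilin and thymosin bind, branch from existing filaments through the Arp2/3 complex, elongate through formins and Ena/VASP proteins, and are cut by cofilin. Tropomyosins coat them, alpha-actinins and filamins link them, non-muscle myosin II pulls on them, and small GTPases switch these steps on and off. In the testis, actin bundles brace the junctions between Sertoli cells, which support the developing germ cells, and a smooth muscle form of actin drives contraction of the peritubular myoid cells around the tubules. Many of these genes are known targets of the transcription factor SRF, which binds a short sequence called the CArG box.

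The promoters that the results turn on are shown first. Starts of transcription and their strand came from the RefSeq promoter table of GRCm38.p6, which matched 51 of the 56 members (Actb, Cttn, Diaph1, Tagln and Rac1 have no entry). Each line gives the 250 bases before a listed start, read in the direction of the gene, with every CpG in capitals. Actg1 and Pfn1 had the strongest intervals of the group, Cfl1 and Cfl2 are paralogs of which Cfl1 alone was marked, Acta2 is the smooth muscle actin gene without an interval, and Tpm3 has 2 listed starts of which the second alone lay in an interval.
Actg1, chr11:120348496-120348745, minus strand: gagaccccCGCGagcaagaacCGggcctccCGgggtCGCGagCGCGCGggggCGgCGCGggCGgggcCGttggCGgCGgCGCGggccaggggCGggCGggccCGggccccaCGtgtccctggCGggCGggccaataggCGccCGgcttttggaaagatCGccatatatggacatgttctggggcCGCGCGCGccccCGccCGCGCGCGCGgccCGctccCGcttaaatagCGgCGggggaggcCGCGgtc
Pfn1, chr11:70654651-70654900, minus strand: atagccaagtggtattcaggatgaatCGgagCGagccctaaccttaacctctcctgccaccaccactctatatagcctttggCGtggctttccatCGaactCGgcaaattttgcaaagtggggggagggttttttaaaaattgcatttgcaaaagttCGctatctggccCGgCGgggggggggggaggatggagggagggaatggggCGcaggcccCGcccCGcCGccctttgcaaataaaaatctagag
Cfl1, chr19:5490205-5490454, plus strand: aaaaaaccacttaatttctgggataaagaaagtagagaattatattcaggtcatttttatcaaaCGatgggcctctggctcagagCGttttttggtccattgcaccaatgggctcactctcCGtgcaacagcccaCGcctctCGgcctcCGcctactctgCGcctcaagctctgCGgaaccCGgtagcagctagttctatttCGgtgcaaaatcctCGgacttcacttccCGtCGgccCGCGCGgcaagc
Cfl2, chr12:54862878-54863127, minus strand: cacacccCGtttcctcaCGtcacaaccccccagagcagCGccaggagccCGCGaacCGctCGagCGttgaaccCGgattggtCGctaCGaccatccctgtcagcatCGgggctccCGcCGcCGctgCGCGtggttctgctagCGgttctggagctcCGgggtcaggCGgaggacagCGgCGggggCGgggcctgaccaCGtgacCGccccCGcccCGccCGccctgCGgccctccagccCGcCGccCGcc
Acta2, chr19:34255374-34255623, minus strand: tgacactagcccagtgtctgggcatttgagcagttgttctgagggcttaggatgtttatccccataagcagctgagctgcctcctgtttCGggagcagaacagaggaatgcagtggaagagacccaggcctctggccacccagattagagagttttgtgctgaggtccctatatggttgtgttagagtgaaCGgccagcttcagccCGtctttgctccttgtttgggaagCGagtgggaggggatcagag
Tpm3 first start, chr3:90072401-90072650, plus strand: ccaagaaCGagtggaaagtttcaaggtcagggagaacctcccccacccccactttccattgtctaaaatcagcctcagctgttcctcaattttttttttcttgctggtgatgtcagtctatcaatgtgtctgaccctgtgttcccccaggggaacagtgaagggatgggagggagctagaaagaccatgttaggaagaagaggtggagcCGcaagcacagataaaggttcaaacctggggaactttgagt
Tpm3 second start, chr3:90079271-90079520, plus strand: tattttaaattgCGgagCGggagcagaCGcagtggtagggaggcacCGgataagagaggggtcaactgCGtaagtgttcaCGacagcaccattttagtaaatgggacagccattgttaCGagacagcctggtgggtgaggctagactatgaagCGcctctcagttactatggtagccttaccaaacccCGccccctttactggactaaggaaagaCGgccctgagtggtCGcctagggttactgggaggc
These stretches held 43 CpGs in Actg1, 12 in Pfn1, 16 in Cfl1, 32 in Cfl2 and 4 in Acta2. The first start of Tpm3 had 2 and the second 11.

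Most of the 56 genes, which were chosen with earlier results of these data known, had an ARID4B interval. Marked were 42 of them (75.0%), against 30.7% of all protein-coding genes. Among genes with a CpG-rich start, a class defined below, the shares were 74.4% of members and 53.8% of all genes. At 41 members (73.2%) the interval lay within 1000 bp of an end of the gene record, against 27.1% of all genes, and all 42 overlapped the record itself without the added 1000 bp. The best interval of each marked member had a median score of 159.1 (lowest 70.52 at Vasp, highest 679.84 at Actg1), and the same median over all 6709 marked genes was 131.8. Of the 56 members 29 had a best score above the median of the list, a limit that 16.7% of all protein-coding genes passed. These were 69.0% of the marked members, against 54.4% of all marked genes, and 10 (23.8%, against 11.6%) were in the highest decile of scores. No test was made of these differences, since there is 1 ChIP library and genes are not replicates of it. The 14 members without an interval were Acta2, Flna, Cfl2, Tmsb4x, Myl6, Myl9, Arpc4, Diaph2, Diaph3, Msn, Enah, Tagln, Rhoa and Rhob.

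**Figure D1:**
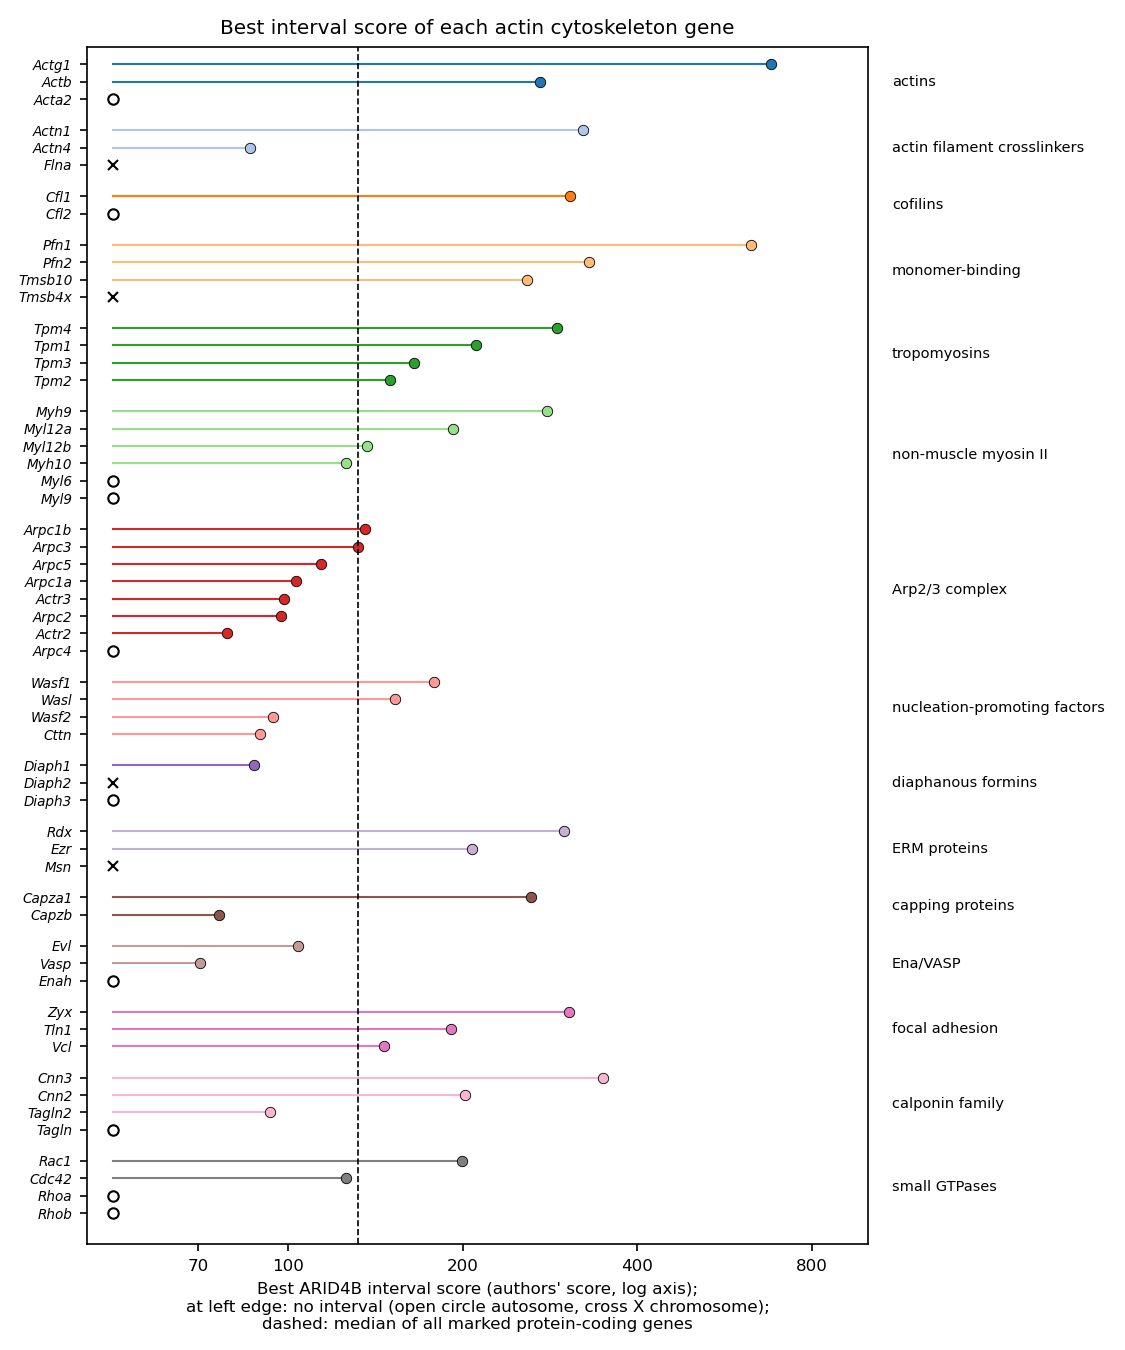
Each row is 1 of the 56 genes, ordered by role, and each filled point is the score of its best ARID4B interval on a log axis. Open circles (autosomes) and crosses (X chromosome) at the left edge are the 14 genes with no interval. The dashed line is the median of all marked protein-coding genes (131.8). Actg1 and Pfn1 reach the highest scores, while 5 of the 7 marked Arp2/3 genes lie clearly left of the line.

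Unmarked members were of 2 kinds by position. Flna, Tmsb4x, Diaph2 and Msn are the 4 members on the X chromosome, and none of them was marked. The X chromosome held 29 of the intervals, and 3.0% of its 966 protein-coding genes were marked. On the autosomes 42 of 52 members (80.8%) were marked, against 32.3% of all autosomal genes. Of the 10 unmarked autosomal members, Rhoa came closest to the rule. An interval with a score of 78.65, which marks Gpx1, lay 1.1 kb from the Rhoa record, and Rhoa was counted when the window was widened to 5000 bp. The nearest interval was 18.1 kb from Tagln, 31.0 kb from Myl6, 33.9 kb from Arpc4, 47.3 kb from Acta2, 53.2 kb from Myl9, 53.4 kb from Enah, 62.8 kb from Cfl2, 174.2 kb from Rhob and 274.5 kb from Diaph3.

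The genes of the cytoplasmic actins were marked and that of the smooth muscle actin was not. Actg1, which encodes gamma-actin, had the best interval of all members at chr11:120347215-120348645 (score 679.84, rank 40 of the list), running from 150 bp before its start to 1280 bp into the gene. A second interval of 1923 bp (score 164.12) followed upstream at chr11:120348676-120350598. The interval of Actb, the beta-actin gene, was 3161 bp wide and covered much of its 4862 bp record (chr5:142904008-142907168, score 271.74, rank 706). Acta2 had no interval. None of the 4 other actin genes, Acta1, Actc1, Actg2 and Actbl2, had one either, so both genes of the general cytoplasmic forms were marked and all 5 others were not.

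The 3 marked of the 4 members for proteins that bind actin monomers had high scores. Pfn1, a profilin gene, was second among the members (chr11:70653439-70656684, score 628.39, rank 58), with an interval of 3246 bp that ran from 2034 bp before to 1211 bp after the start and also reached Eno3. Its paralog Pfn2 had 329.71 (chr3:57846612-57848472, rank 426). Tmsb10, a thymosin beta gene, had 258.61 (chr6:72957680-72959035, rank 793), and the interval covered most of its 1402 bp record. X-linked Tmsb4x, its close relative, had none. Cfl1, the non-muscle cofilin gene, had 305.91 (chr19:5490189-5491702, rank 526) while Cfl2, the form typical of muscle, had none. The 250 bases before the start held 16 CpGs in Cfl1 and 32 in Cfl2, and the part of CpG content was not tested.

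All 4 tropomyosin genes were marked, and in 2 of them the intervals lay away from the first start. Of all protein-coding genes 30.7% were marked, and of those with a CpG-rich start 53.8%. Tpm4 had the best score (chr8:72134954-72136658, 291.32, rank 595), at its single listed start. Tpm3 has a first start at 90072651 and a second 6870 bp downstream at 90079521, and different starts of tropomyosin genes are known to give different protein forms. Its only interval (chr3:90079205-90080786, 165.2) covered the second start and had its midpoint 7344.5 bp from the first and 474.5 bp from the second. Tpm1 had 3 intervals, with scores of 210.71 (chr9:67047255-67048680, rank 1262), 106.94 (chr9:67043242-67044208) and 87.11 (chr9:67029497-67030501). Their midpoints lay 1245.5, 5488 and 19214 bp into the gene from its only listed start, and none covered that start. Tpm2 had 150.09 at its start (chr4:43523009-43524429) and 94.1 at a second interval with its midpoint 4191 bp inside the gene (chr4:43518903-43519823).

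Non-muscle myosin II genes were marked for 4 of 6 subunits (66.7%). The share was 30.7% over all protein-coding genes and 53.8% over those with a CpG-rich start. Myh9, the heavy chain of myosin IIA, had 279.85 at its start (chr15:77840867-77842430, rank 656) and 123.38 near its other end, at chr15:77762720-77764751, with the midpoint 78439.5 bp from the start. The heavy chain gene of myosin IIB, Myh10, had 126.03 (chr11:68692455-68693305, rank 3270), in an interval of 851 bp that began 540 bp after its listed start. The neighbouring regulatory light chain genes Myl12a (chr17:71001661-71002824, 192.63, rank 1520) and Myl12b (chr17:70989854-70991223, 136.87, rank 2836) each had an interval of its own at the start, that of Myl12a also reaching Myom1. Myl6, the essential light chain gene, and Myl9, the regulatory light chain of smooth muscle, had none.

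The Arp2/3 complex, which starts branched filaments, was marked at nearly every gene but with low scores. Intervals lay at 7 of its 8 listed genes (87.5%, against 30.7% of all protein-coding genes and 53.8% of those with a CpG-rich start). Each covered the listed start. Of the subunits known as ARPC, Arpc1b had 135.52 (chr5:145114106-145115304, rank 2886), Arpc3 131.77 (chr5:122391647-122392784, rank 3040), Arpc5 114.0 (chr1:152765765-152767407, rank 3763, also reaching Rgl1), Arpc1a 103.1 (chr5:145083496-145084218, rank 4306) and Arpc2 97.26 (chr1:74236276-74237292, rank 4644). The genes of the actin-related subunits that form the seed of the new branch, Actr3 and Actr2, had 98.28 (chr1:125434498-125435808, rank 4579) and 78.43 (chr11:20112190-20113407, rank 5924). The median of the 7 was 103.1, below the median of the whole list, and 2 of the 7 exceeded that median. Arpc4 had none. The 4 listed factors that switch the complex on were marked, with Wasf1, a WAVE gene, at 178.38 (chr10:40883426-40884514, rank 1767, also reaching Cdc40), Wasl, the gene of N-WASP, at 152.98, Wasf2 at 94.16 and Cttn, the cortactin gene, at 89.59.

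Among genes acting at the barbed end of the filament, 1 of 3 diaphanous formin genes, 2 of 3 Ena/VASP genes and both capping protein genes were marked. These groups hold 2 or 3 genes each, and 30.7% of all protein-coding genes were marked. Diaph1 had 87.51 (chr18:37934649-37935622, rank 5291) while the other diaphanous formin genes, Diaph2 on the X chromosome and Diaph3, had none. Among the Ena/VASP genes, which encode elongation factors, Evl had 104.01 (chr12:108555053-108555722, rank 4244) and Vasp 70.52 (chr7:19271306-19272202, rank 6581), the latter just above the lowest score of the list, and Enah had none. The capping protein genes differed from each other: Capza1 had 262.73 (chr3:104864027-104865636, rank 762) and Capzb 76.1. The Capza1 interval also marked St7l, and a listed start of St7l lay nearer to its midpoint than that of Capza1. That of Capzb was 534 bp wide and ended 661 bp before its listed start.

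Genes for crosslinkers, membrane linkers and adhesion plaque proteins were marked in 10 of 13 cases, counting the calponin family. The background was 30.7% of all protein-coding genes, or 53.8% of those with a CpG-rich start. Cnn3, a calponin gene, came after Actg1 and Pfn1 among the members (chr3:121425772-121428025, 349.48, rank 353), Cnn2 had 201.78 (chr10:79988121-79990329, rank 1375), Tagln2 had 93.14 (chr1:172499894-172500670, rank 4928) and Tagln, the smooth muscle transgelin gene, had none. Actn1 and Actn4 encode the non-muscle alpha-actinins, and their scores were 322.5 (chr12:80258863-80260378, rank 454) and 85.97 (chr7:28961663-28962616, rank 5389). X-linked Flna, the filamin A gene, had none. Rdx, the radixin gene, had 299.26 (chr9:52047630-52049244, rank 551), at the second of 2 listed starts, and Ezr, the ezrin gene, 207.72 (chr17:6782187-6783818, rank 1302), while X-linked Msn, the moesin gene, had none. All 3 focal adhesion genes were marked, Zyx, the zyxin gene, with 305.58 (chr6:42349209-42351435, rank 528), Tln1, the talin gene, with 191.34 (chr4:43561636-43562807, rank 1535, also reaching Creb3) and Vcl, the vinculin gene, with 146.57.

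Of the 4 small GTPase genes, Rac1 (chr5:143527301-143528188, 199.68, rank 1397) and Cdc42 (chr4:137357038-137358105, 125.7, rank 3282) were marked, and Rhoa and Rhob were not. Rac1 and Cdc42 drive protrusions through WAVE and N-WASP, and Rhoa drives contraction through formins and the ROCK kinases.

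The intervals sat on the start of transcription and reached into the gene. Among the 38 marked members with a listed start, the best interval covered the start base in 34 (89.5%), against 76.1% of the 5373 marked genes with a listed start. Its midpoint lay downstream of the start in 31 of 38 (81.6%, 77.9% of all marked genes), at a median of 278.75 bp (quartiles 106.375 and 495.5 bp), against 219.5 bp over all marked genes. The exceptions that missed the start were Tpm1, Myh10 and Evl, whose intervals began downstream of it, and Capzb, whose interval lay upstream. The 300 bases from 250 before to 50 after a listed start were overlapped in 34 of 51 members (66.7%), against 25.4% of all 17492 genes with a listed start. For genes with several listed starts the one nearest to the interval was used, which favours small distances.

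**Figure D2:**
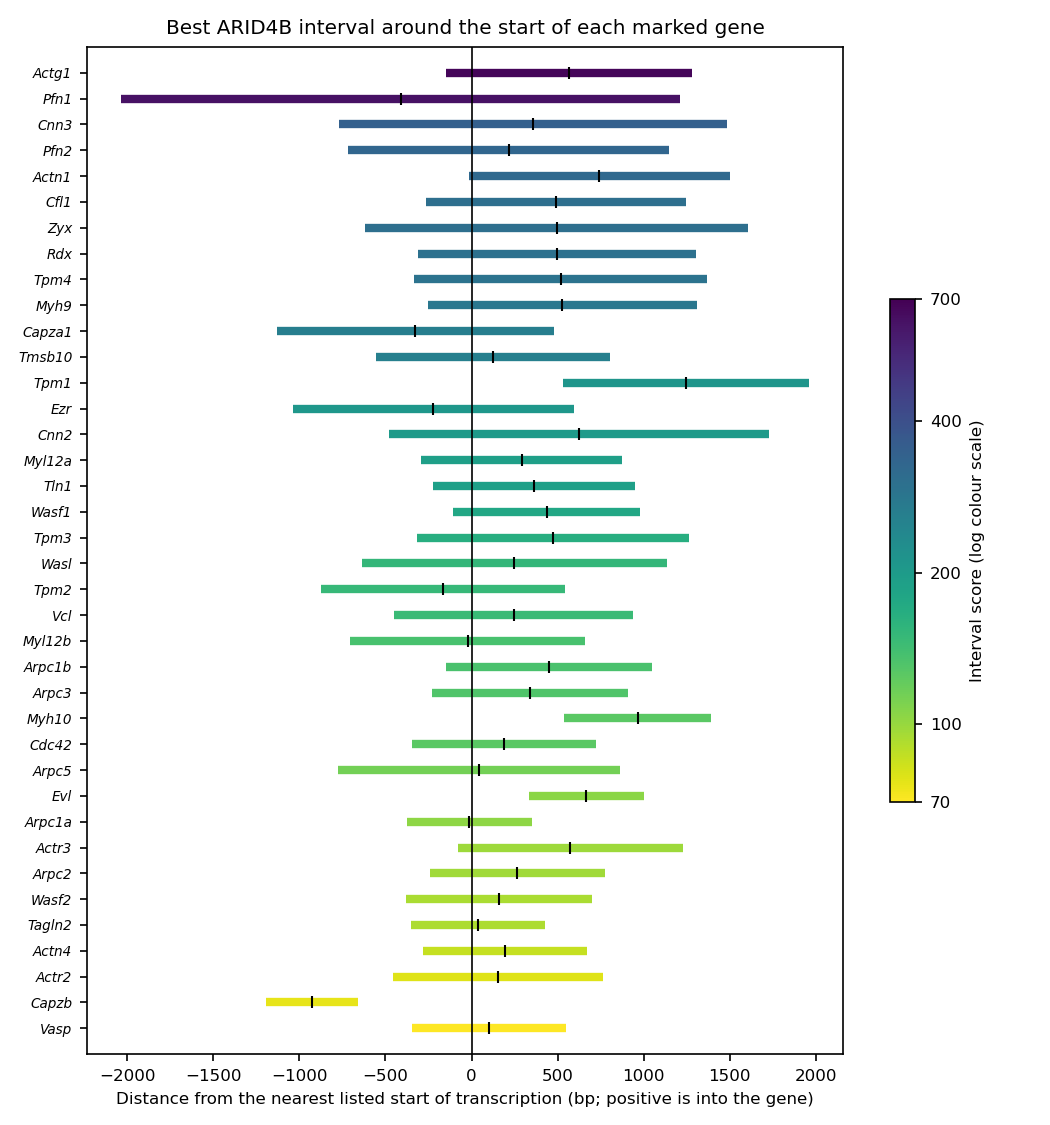
Each bar is the best ARID4B interval of 1 of the 38 marked members with a listed start, drawn by distance from that start in bp (positive is into the gene), with a tick at its midpoint and the score as colour on a log scale. Bars of 34 genes cross the start, and those of Tpm1, Myh10, Evl and Capzb do not.

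Best intervals of the members had a median width of 1363 bp, against 1130 bp over all marked genes. More than 1 interval was found at 4 members (Actg1, Tpm1, Tpm2 and Myh9, 9.52% of those marked, against 10.7% of all marked genes). The best interval also marked another protein-coding gene at 6 members (14.3%, against 28.5%), which were Pfn1, Myl12a, Arpc5, Wasf1, Capza1 and Tln1. Marked members had a median record length of 29.7 kb and unmarked ones of 13.8 kb, and over all genes the medians were 26.3 and 14.2 kb. The part of record length in which genes were marked was not tested.

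Most starts of the members were CpG-rich whether marked or not, but the median G+C was higher in marked members. A start was called CpG-rich when the 300 bases had over 50% G+C and an observed over expected CpG ratio above 0.6. That held for 43 of 51 members (84.3%), against 46.2% of all genes with a listed start, and for 32 of the 38 marked and 11 of the 13 unmarked members. The median ratio was 0.81 in marked members, 0.77 in unmarked members and 0.83 in all marked genes, against 0.36 in all unmarked genes. Median G+C was 67.0% in marked and 59.7% in unmarked members, and the median number of CpGs was also higher in marked members. These differences between members were not tested. Among all genes with a CpG-rich start 53.8% were marked, and among the other listed starts 10.9%. The members stood at 32 of 43 (74.4%) and 6 of 8 (75.0%). The 6 marked members outside the CpG-rich class were Pfn1, Zyx, Tpm2, Cdc42, Capzb and Vasp, and all lay near its limits (ratio 0.51 to 0.6, except Cdc42 with a ratio of 1.25 and 49.33% G+C). Acta2 had the lowest ratio of the 51, 0.27. Unmarked Enah and Cfl2 had G+C contents of 83.33% and 75.33%.

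**Figure D3:**
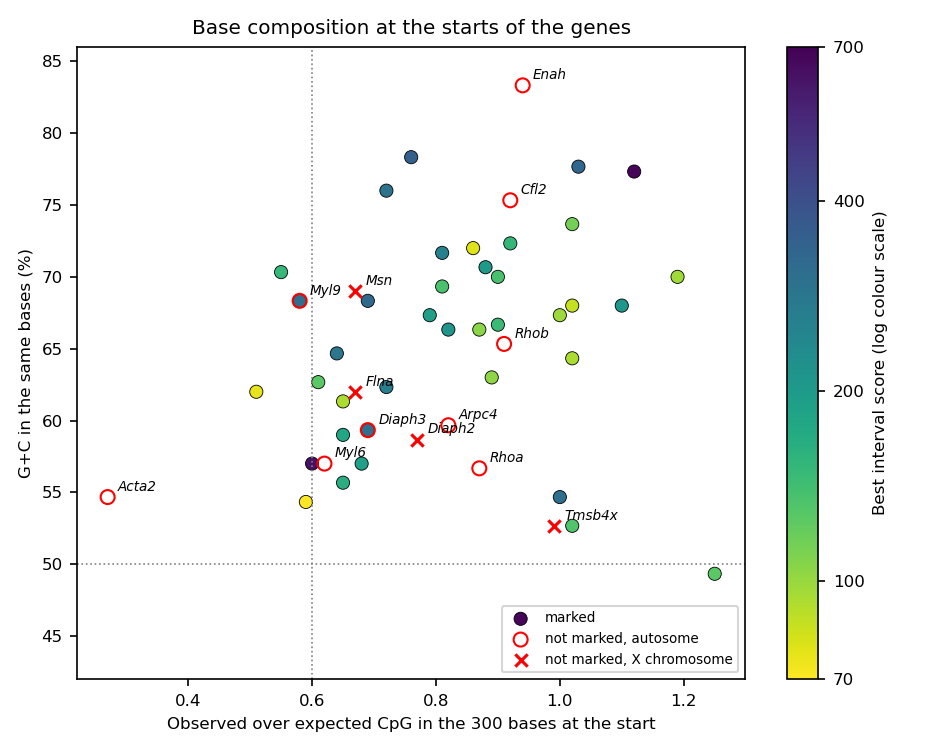
Points are the 51 members with a listed start, placed by the observed over expected CpG ratio and the G+C percentage of the 300 bases at the start; filled points are marked (colour gives the score on a log scale) and red symbols are not (circles autosomes, crosses X chromosome). Dotted lines are the limits of 0.6 and 50%, and unmarked genes other than Acta2 and Enah lie among the marked ones (the circles of Myl9 and Diaph3 fall on the points of Zyx and Rdx).

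Short motifs were counted on both strands of the same 300 bases, each motif on its own, so that overlapping matches count for both. GGGCGG, the GC box of the SP factors, was present in 42 of 51 members (82.4%), 46.8% of all genes with a listed start and 72.8% of all marked genes. It was in 34 of 38 marked members (89.5%) and 8 of 13 unmarked members (61.5%), and in 35.3% of all unmarked genes. That difference was not tested. CCGGAAG, a core of ETS factor sites, was in 13 members (25.5%, 12.0% of all genes), CCAAT in 18 (35.3%, 38.8%) and TATAAA in 3 (5.88%, 13.3%). The CArG box, counted only as an exact CCWWWWWWGG with W for A or T, was found in 5 members (9.8%). The shares were 1.53% of all genes and 1.23% of all marked genes. The members with a box were Actg1, Vcl and Cnn2, which were marked, and Myl9 and Arpc4, which were not. The boxes are shown in capitals within the surrounding bases before the start, to set the marked and the unmarked genes side by side.
Actg1, chr11:120348561-120348600, minus strand: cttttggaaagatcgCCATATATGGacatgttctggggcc
Vcl, chr14:20929156-20929195, plus strand: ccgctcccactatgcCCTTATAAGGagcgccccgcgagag
Cnn2, chr10:79988529-79988568, plus strand: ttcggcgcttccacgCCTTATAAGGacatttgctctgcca
Myl9, chr2:156775288-156775327, plus strand: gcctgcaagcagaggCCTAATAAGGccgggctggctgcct
Arpc4, chr6:113377863-113377887, plus strand: CCTAATTTGGtgcccaacctgaggt
Counting the base before the start as -1, the boxes began at -90 in Actg1, -227 in Vcl, -56 in Cnn2, -161 in Myl9 and -250 in Arpc4. A match is a description of the letters and not a shown site, and boxes outside these windows were not searched. Near matches, such as ccctatatgg in the Acta2 stretch shown above, were not counted. Actb and Tagln, without a listed start, were not searched.

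Genes of the wider actin system were marked less often than the 56 members but, in several classes, more often than the background of 30.7%. Of 131 further genes in 11 lists, 53 (40.5%) were marked, with a median best score of 130.3. Of all genes with a CpG-rich start 53.8% were marked, and the highest share of any list (60.0%, other formins) was near that value. How many of the 131 have such a start was not examined. Among the other Arp2/3, WASP and WAVE genes 8 of 14 were marked, led by Whamm (153.44), Cyfip1 (144.06) and Arpc5l (130.31), and Actr3b, Wasf3 and Was were among those without an interval. Their median of 110.0 was low, as in the complex itself. Of the other formin genes 6 of 10 were marked, led by Fmnl2 (299.32), Daam1 (135.19) and Fhod3 (112.57), with Daam2, Fmn1 and Fmn2 among the unmarked.

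Other genes of the small GTPase family were marked in 6 of 14 cases (42.9%), against 30.7% of all protein-coding genes and 53.8% of those with a CpG-rich start. Rnd3 (424.33) and Rhof (403.6) scored higher than every member but Actg1 and Pfn1, Rhog had 160.39, and Rac2, Rhoj and Rhoq were among those without an interval. Genes of small GTPase effectors were marked in 8 of 15 cases (53.3%), with Pak2, Pak3 and Pak4 unmarked. Those marked were led by Ppp1r12a, the targeting subunit of myosin phosphatase (318.59), the kinase gene Rock1 (177.35) and Limk2, a kinase gene acting on cofilin (161.67). For further crosslinker and adhesion plaque genes the count was 10 of 17 (58.8%), with a median of 240.4, and Lcp1, Pls1 and Pls3 were unmarked. The highest scores there were at Pdlim7 (373.42), the fascin gene Fscn1 (284.76) and the spectrin gene Sptan1 (265.12). Further capping, severing and monomer-binding genes reached 8 of 20, led by Coro1c (221.75), Tmod3 (131.54) and Coro1b (126.04), with Capza2, Capg and Gsn unmarked.

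SRF and its cofactors were marked at 4 of 7 genes (57.1%). Marked were 30.7% of all protein-coding genes and 53.8% of those with a CpG-rich start. Srf itself had 506.52 (chr17:46554459-46556340, rank 105), Elk4 281.94, and the actin-regulated cofactor genes Mrtfa and Mrtfb had 149.23 and 106.74. Myocd, the cofactor gene of smooth and cardiac muscle, had none, nor did Elk1 and Elk3.

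The lists made up of muscle or germ-line isoforms were marked at shares from 0 to 22.2%, against 30.7% of all protein-coding genes. Muscle forms placed in the other lists are not part of that range, and some of them were marked. Smooth muscle contractile genes outside the 56 were marked in 2 of 9 cases (22.2%, near that background), Mylk (120.26) and Des (72.66), with Actg2, Myh11 and Cnn1 unmarked. Of the 7 markers used for peritubular myoid and smooth muscle cells, 3 of them members (Acta2, Tagln and Myl9), Des alone was marked. Striated muscle myosins were marked at 1 of 13, Mylpf (190.97), with Myh1, Myh2 and Myh3 unmarked. The Mylpf interval also marked Tbc1d10b and lay outside the Mylpf record, so that with a window of 0 bp Mylpf was not counted. None of the 10 actin-like, profilin and capping genes typical of the male germ line, Actl7a, Actl7b and Actl9 among them, was marked. Among markers of other testis cells, 4 of 5 Sertoli genes (all but Fshr), 1 of 5 germ cell genes (Dazl), 1 of 3 endothelial genes (Kdr), 0 of 5 Leydig and 0 of 3 macrophage genes were marked. How far the mix of cells in the pool sets which isoforms were marked was not tested.

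**Figure D4:**
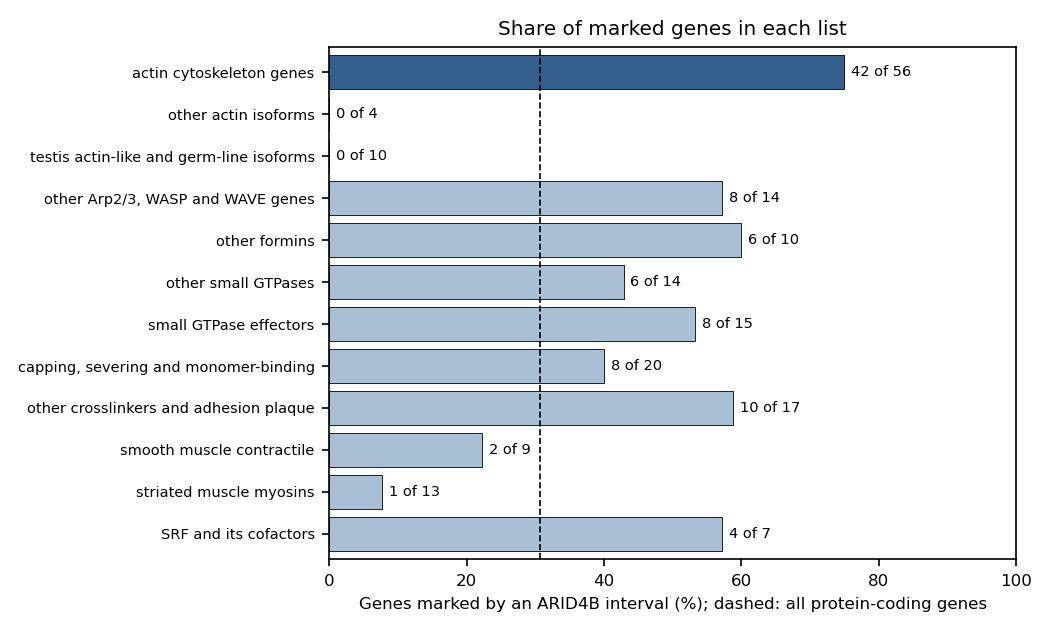
Bars give the percentage of genes marked by an ARID4B interval in the 56 members (dark) and in 11 lists of related genes (light), with counts beside them, and the dashed line is the share of all protein-coding genes (30.7%). The members stand at 75.0%, and the lists of other actins and of germ-line isoforms at 0. Members and lists were chosen with earlier results of these data known.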

How the data were processed

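ARID4B ChIP DNA and input DNA from pooled testes were sequenced, with 1 library each. BWA and MACS are named in the submitters' processing notes. Their versions, settings and filters are not stated there. The notes name mm9, the name of the deposited list says mm10. The intervals were read as GRCm38 (mm10), on which 76.1% of the best intervals of marked genes with a listed start cover that start. The authors deposited a score per interval whose scale is not stated. The list is named for p-values although every value exceeds 1, and the score was used only to describe, rank and filter intervals within this list. Interval positions were deposited by the authors counting from 0. Depth of either library is unknown, so the lowest detectable enrichment is unknown too.

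Gene records and starts came from RefSeq tables of GRCm38.p6. Overlaps, base composition and motifs were computed in Python 3.11.15 with pandas 2.3.3 and NumPy 2.4.6, and the overlap step was tested on simulated data. The members and lists were chosen with earlier results of these data known. No test was fitted, since there is 1 ChIP library. All members were named, with coordinates for the 20 best scores and for families split between marked and unmarked. In each list the 3 best-scoring genes and up to 3 unmarked ones were named, and Rhoc and Rock2 were added beside the small GTPase members. Alternatives were a score limit, window sizes, overlap rules, gene ends, unshared intervals and autosomes; the window at a listed start was chosen after seeing the data. A gene of the crosslinker list is not reported here.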

Additional observations from a re-analysis of the deposited data

How the results depend on the processing

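The count of 42 marked members was 42 with windows of 0 or 500 bp, with the midpoint or at least 50% of the interval in the window, and on autosomes only. Of all genes counted, 29.6% to 32.3% were marked under these settings. The count was 43 with a window of 5000 bp (76.8%, against 33.5% of all genes), 41 at gene ends (73.2%, 27.1%) and 36 with intervals that mark 1 gene (64.3%, 22.4%). At listed starts it was 34 of the 51 members that have one (66.7%, 25.4%). With intervals scoring above the median it was 29 of 56 (51.8%, 16.7%). The last 2 settings also lowered the number of marked protein-coding genes from 6709 to 4435 and 3650. With the score limit, 6 of the 15 role groups had over 50% of members marked (12 without it), and 29 of the 131 further genes were marked (53 without it). Of the Arp2/3 genes 2 of 8 then stayed, of the diaphanous formin and Ena/VASP genes 0, since the other marked genes of these groups scored below the median of the list. The median best score of marked members lay between 148.3 and 207.7 under every setting. Of 260 counts for single role groups and lists under alternatives, 235 stayed within 1.5 times. Leaving out a replicate was not possible with 1 ChIP library.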
